A study of Cricetulus griseus with 24 samples.

Results

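The transcriptome of A0, an antibody-producing Chinese hamster ovary (CHO) clone, was set against that of CHO-S, another CHO line, both taken at exponential growth. The comparison rests on every library that the labels place in these groups, which is 11 of the 24 libraries and 7 of the 20 cultures of the series. A0 gave 8 libraries with 4 culture numbers, and libraries with the same number were summed, so that A0 counted as 4 cultures. CHO-S gave 3 libraries, each its own culture, whose titles carry the letters NDST. The sources used here do not explain this term, so whether the CHO-S cultures carry a transgene is not known here. A0 is 1 clone of DG44 origin. The study's methods describe co-transfection with 2 plasmids, one with an IgG heavy chain and the other with an IgG light chain and neomycin phosphotransferase, selection with G418, and no methotrexate amplification, which was applied only to its progeny A1. The medium that the methods give for the antibody-producing lines was serum-free with hydrolysate and insulin, and CHO-S is not mentioned there. The host line, the clone, the transgenes and any handling that differed between the lines cannot be told apart in this design. The methods describe replicate flasks for all cell lines, but no label links a library to a flask, so the p-values measure the spread between these samples, which may be partly technical.

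CHO cells descend from the ovary of 1 Chinese hamster and have since branched into lines that were kept apart for decades. DG44 was obtained by mutagenesis and is a common host for antibody genes. CHO-S was adapted to growth in suspension. CHO genomes are rearranged and vary between lines, and lines can differ in which genes are silent.

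Between 8479208 and 14586630 reads per library were counted on genes in A0, and 12449462 to 14652646 in CHO-S. After summing, an A0 culture held 23065838 to 26584337 counts. Reads that were not aligned made up 3.13% to 4.85% in A0 and 2.31% to 2.36% in CHO-S. Markers of other cell types differed in level. The leukocyte markers, of which 11 of 12 were in the table, summed to 0.683 to 1.18 CPM (counts scaled by library size) in A0 cultures and to 0.569 to 0.960 CPM in CHO-S cultures, with Ptprc and Laptm5 at or near 0. The follicle-stimulating hormone receptor Fshr, which defines granulosa cells, and the epithelial keratin Krt18 were at 0 in every culture of both lines. Of 5 epithelial and 6 granulosa cell markers tested, 3 each were higher in A0, with levels of up to 1.89 CPM (Grhl2) and 6.17 CPM (Inha), and their part in the results was not tested. The endothelial markers summed to 353.9 to 373 CPM in A0 and 233.7 to 243.8 CPM in CHO-S, nearly all of it from Eng (357 against 234 CPM), while Cldn5 was at 0 and the other members were at most 2.45 CPM in either line. The mesenchymal markers summed to 2095 to 2379 CPM in A0 and 3731 to 3861 CPM in CHO-S, with 4 of 11 tested higher in A0 and 4 lower, among them Vim with 1386 against 1207 CPM and Fn1 with 366 against 1843 CPM. RNA came from whole cultures, so fewer cells of a type and less RNA per cell cannot be told apart.

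The lines differed over much of the transcriptome. Of 19966 genes tested, 9879 passed the threshold, an adjusted p under 0.05 (49.5%, edgeR, quasi-likelihood, Benjamini-Hochberg). Among them, 5506 genes (27.6% of those tested) were higher in A0 and 4373 (21.9%) were lower. A difference of at least 2-fold was seen in 4263 genes (21.4%), of which 1665 were lower in A0 (8.34%) and 2598 higher. For 53.8% of the genes, all A0 cultures lay on the same side of all CHO-S cultures. Counts of list members are read against these shares and against that of well-expressed genes, given below. Part of the excess of higher genes was among scarce transcripts, as 1362 of the called genes were under 1 CPM on average in both lines and 1014 of these were higher in A0. With only the first library of each A0 culture, 5236 genes were higher and 4697 lower. Among the 9737 genes with at least 10 CPM in 1 of the lines the median log2 fold change was 0.02, against 0.14 over all genes tested. In that set 66.8% of the genes passed, and 1545 passed with at least a 2-fold difference. The A0 cultures fall into pairs by their titles, where the second library of cultures 1 and 2 is named RLT and that of cultures 3 and 4 Duplicate. Cultures 1 and 2 alone gave 11164 calls against CHO-S, and cultures 3 and 4 alone gave 9709. Of the 9879 calls, 8364 were made in the same direction with either pair.

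**Figure D1:**
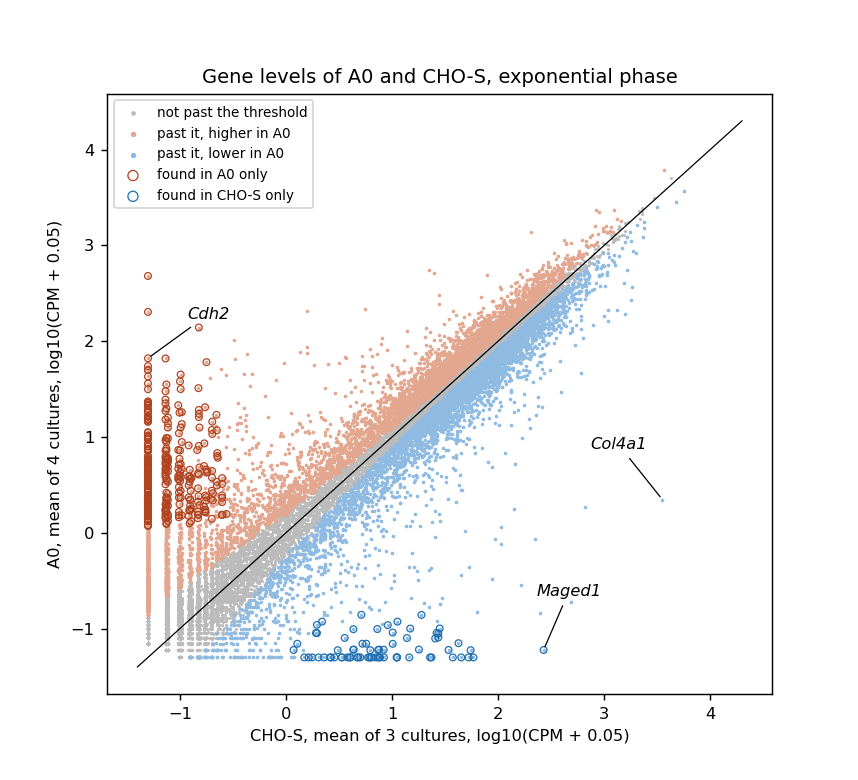
Mean level of each gene tested in CHO-S (3 cultures, horizontal axis) and A0 (4 cultures, vertical axis), as log10 of CPM plus 0.05, with the line of equality. Genes past the threshold are coloured by direction and genes found in 1 line only are circled; Col4a1 and Maged1 lie far below the line, and Cdh2 at the left edge had no count in CHO-S.

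A group of genes close together in the genome had no counts in A0. Msh3, which encodes a mismatch repair protein, had 0 counts in every A0 culture against 50.8, 52.8 and 54.5 CPM in CHO-S. Set against a floor of 3 counts per culture, it was at least 442.5-fold lower in A0. Nearby genes behaved alike. Fam151b had 0 counts in A0 and 11.01 ± 0.502 CPM in CHO-S (SD, n = 3), at least 92.4-fold lower. Zfyve16, which encodes an endosomal protein, had 0 counts in A0 and 58.6 ± 1.91 CPM in CHO-S, at least 491.4-fold lower. Beyond these 3 genes expression was present in both lines. Zcchc9 (log2 fold change -1.29), Serinc5 (-1.04), Mtx3 (-1.62) and Papd4 (-1.08) were lower in A0, whereas Ssbp2 (-0.35, adjusted p = 0.12) and Atg10 (-0.34, adjusted p = 0.19) did not pass in edgeR. Gene order here and below is by start position within each chromosome name of the RefSeq assembly CriGri-PICRH-1.0. Sequences that share a chromosome name were not separated, so neighbours in this order may not be adjacent in the genome. These neighbourhoods were looked at after the values were seen.

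The Hoxa genes, which specify position along the body axis, had no counts in A0 and were expressed in CHO-S. In gene order, 10 adjacent genes with detectable expression were found in CHO-S only, with Hoxa10, Hoxa9, Hoxa7, Hoxa3, Hoxa6, Hoxa5, Hoxa4, Hoxa2 and LOC103161127 among them. All had 0 counts in all 4 A0 cultures. Hoxa7 had 46.9, 42.6 and 45.2 CPM in the CHO-S cultures and was at least 376.9-fold lower in A0, and Hoxa10 (22.9 CPM on average) and Hoxa9 (23.5 CPM) were at least 191.8-fold and 197.4-fold lower. The others named lay between 1.59 CPM for Hoxa2 and 5.90 CPM for Hoxa6. The genes listed on either side were expressed in both lines. Hibadh on one side had 55.4 ± 5.57 CPM in A0 (SD, n = 4) and 56.2 ± 1.18 in CHO-S (adjusted p = 0.88, edgeR). Tax1bp1 beyond it was lower in A0 (143.3 against 240.7 CPM, log2 fold change -0.75). Cbx3 on the other side had 127 ± 8.87 and 148.5 ± 3.77 CPM (-0.22, adjusted p = 0.038, edgeR). Over the whole Hox list, 20 of 26 members tested were lower in A0 and 2 were higher, against 21.9% and 27.6% of all genes. The median log2 fold change was -2.60, or -2.23 with genes at the floor set to their bound, against 0.14 over all genes, and the Hoxa genes above are among the 20. Outside that cluster Hoxc4 (0.275 against 17.6 CPM, log2 fold change -5.96) and Hoxc8 (2.21 against 23.1 CPM, -3.38) were lower in A0. The members that were higher were Hoxd9, with 34.7 ± 7.30 against 23.7 ± 0.802 CPM (0.55, SE 0.14, adjusted p = 0.0052, edgeR), and Hoxd3 (1.29).

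**Figure D2:**
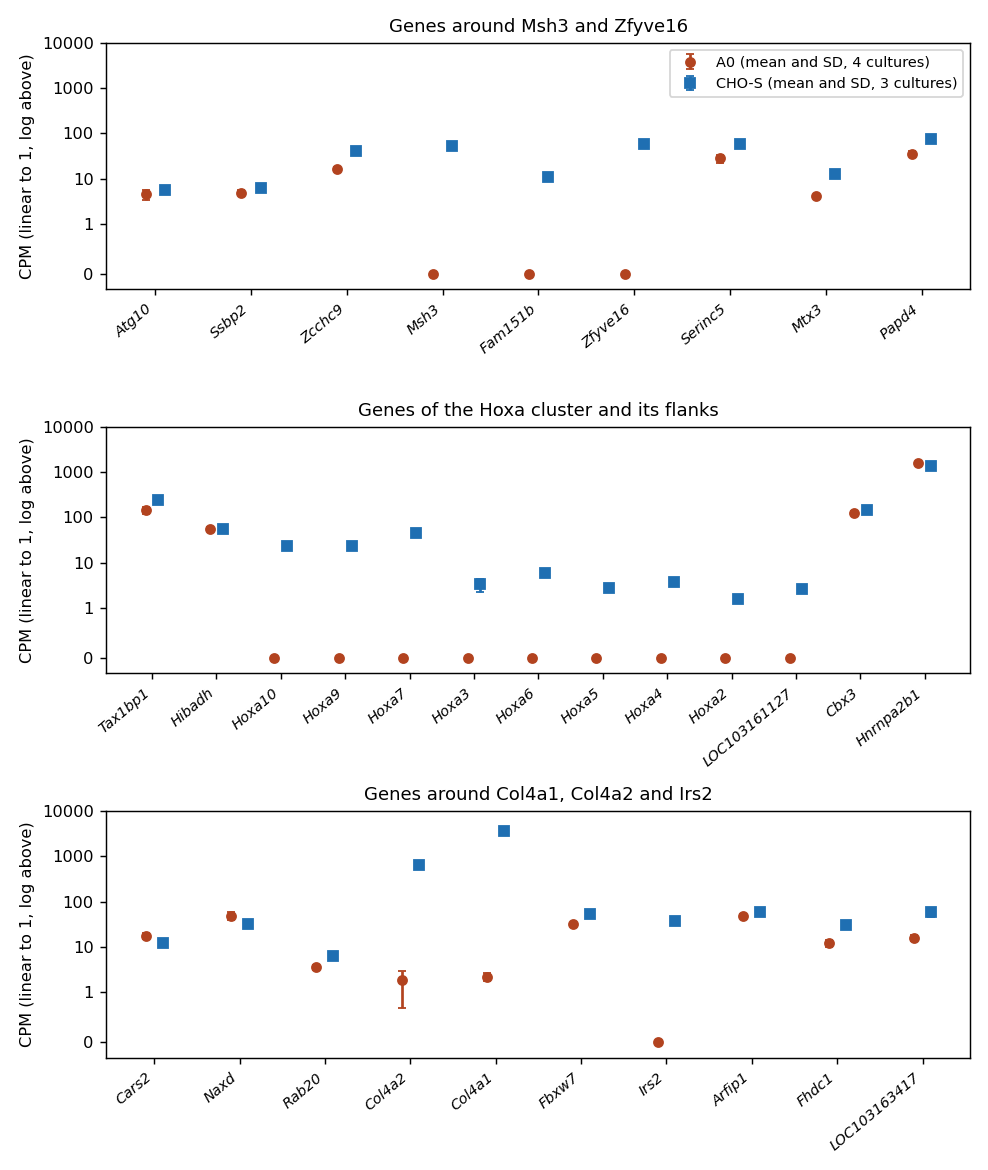
Mean CPM and SD of A0 (4 cultures, circles) and CHO-S (3 cultures, squares) for genes ordered by start position within a chromosome name, not to scale and with some genes left out. Sequences under 1 chromosome name were not separated. The axis is linear up to 1 CPM and logarithmic above. In each of the 3 neighbourhoods 3 or more genes are at or near 0 in A0 only, and the genes at either end are expressed in both lines.

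A large difference at high expression was in type IV collagen, the network-forming collagen of basement membranes. Its chains alpha 1 and alpha 2 are encoded by a head-to-head pair of genes. Col4a1 had 1.97, 1.88, 2.05 and 2.78 CPM in A0 and 3459, 3624 and 3550 CPM in CHO-S, a log2 fold change of -10.67 (SE 0.14, adjusted p = 1.93e-15, edgeR). Col4a2 had 1.33, 0.941, 1.53 and 3.45 CPM in A0 and 637, 674 and 659 CPM in CHO-S (-8.51, SE 0.26, adjusted p = 4.31e-12, edgeR). A few reads of each were thus counted in every A0 culture. Irs2, the insulin receptor substrate 2 gene nearby, had 0 counts in all A0 cultures and 35.4, 40.4 and 36.3 CPM in CHO-S, at least 313.5-fold lower in A0. Fbxw7, listed between Col4a1 and Irs2 in this order, was expressed in both lines (31.4 ± 3.04 CPM in A0, n = 4, and 52.6 ± 2.04 in CHO-S, n = 3; SD). Whether Fbxw7 and the other listed genes lie on the same sequence as Col4a1 was not tested. Of the genes listed beyond, Cars2 (0.51) and Naxd (0.62) were higher in A0, Rab20 (-0.80) and Fhdc1 (-1.31) lower.

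Genes expressed in only 1 line were counted as those with at least 1 CPM in every culture of that line and at most 3 counts in every culture of the other. Of 12610 genes with at least 1 CPM in every culture of either line, 307 (2.43%) were found in A0 only and 71 (0.563%) in CHO-S only. The 2 rules are not equally strict, because a CHO-S culture is about as deep as 1 of the 2 libraries of an A0 culture, so that 3 counts correspond to 0.225 CPM in CHO-S and 0.119 CPM in A0. With the first library of each A0 culture alone the counts were 284 and 98. In A0, 121 of the genes had a symbol and 186 a LOC number, 155 were protein coding, 59 were long non-coding RNAs and 91 could not be matched to RefSeq, while in CHO-S 59 of 71 had a symbol and 64 were protein coding. The A0 genes were mostly scarce, with a median of 3.75 CPM and 60 genes at 10 CPM or more. Those of CHO-S had a median of 7.01 CPM with 26 such genes. In the gene order described above, with its limit, 37 of 216 placed A0 genes and 16 of 65 placed CHO-S genes had a neighbour found in the same line only.

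The named genes found in A0 only included cadherins and transcription factors. Cdh2, which encodes N-cadherin, a calcium-dependent adhesion protein of mesenchymal and neural cells, had 66.4, 69.7, 69.0 and 60.3 CPM in A0 and 0 counts in CHO-S, at least 295-fold higher. Cdh13, an anchored cadherin, had 15.5, 15.7, 33.4 and 33.5 CPM in A0 and a single count in CHO-S culture 1. Its level was again split between cultures 1 and 2 and cultures 3 and 4. Creb5, a member of the CREB and ATF family, was split in the same way, with 25.3, 29.2, 65.7 and 50.9 CPM in A0 and 0 counts in CHO-S, at least 190.3-fold higher. Of the other regulators, the nuclear factor I gene Nfib was at least 169.1-fold higher (38.0 ± 9.47 CPM; SD, n = 4), the basic helix-loop-helix gene Hes2 at least 160.3-fold (36.1 ± 1.79 CPM), and Twist1, a factor of mesenchymal cells, at least 96.4-fold (21.7 ± 1.91 CPM). Slc9a9, a sodium and proton exchanger of endosomes, had 44.8 ± 2.49 CPM in A0. The 10 highest, to which Twist1 does not belong, also held Dpy19l2, Csmd3, Malrd1 and the membrane mucin gene Pdpn, between 22.6 and 35.3 CPM. Twist1 stood next to Hdac9, which was also found in A0 only, at 3.45 ± 1.16 CPM.

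The genes found in CHO-S only were led by Maged1, a MAGE family gene implicated in neurotrophin signalling. It had 275, 271 and 260 CPM in CHO-S, and in A0 1 count in culture 2 and none in the other 3 cultures, so it was at least 2254-fold lower. The 10 highest also held Zfyve16, Msh3, Hoxa7 and Irs2, described above, and Bicc1, an RNA-binding protein gene (55.1 ± 1.69 CPM; SD, n = 3), Vstm4 (42.3 ± 2.14), Stard4, a sterol transfer protein gene (34.1 ± 2.43), Ifi44l, an interferon-inducible gene (28.1 ± 5.96), and Morn4 (27.3 ± 2.12). Each had at most 3 counts in any A0 culture.

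Most of these genes kept to their line at stationary phase. Of the 307 genes of A0, 271 had at least 1 CPM in every stationary A0 culture, and 274 had at most 3 counts in every stationary CHO-S culture, 1 of which has only 1038026 counts. Of the 71 genes of CHO-S, 65 had at least 1 CPM in every stationary CHO-S culture and 66 were at the floor in every stationary A0 culture. In A1, the amplified progeny of A0, 187 of the 307 genes had at least 1 CPM in every exponential culture and 31 were at the floor. Of the 71 genes, 1 had at least 1 CPM in every exponential A1 culture and 44 were at the floor. The other A1 values depended on 1 culture. A1 culture 1 had counts for 65 of the 71 genes, with a summed level of 26.2 CPM, while cultures 2 and 3 had counts for 15 genes each and sums of 5.29 and 5.26 CPM. The same genes summed to 1140 to 1175 CPM in exponential CHO-S and to 0.934 to 1.31 CPM in exponential A0.

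**Figure D3:**
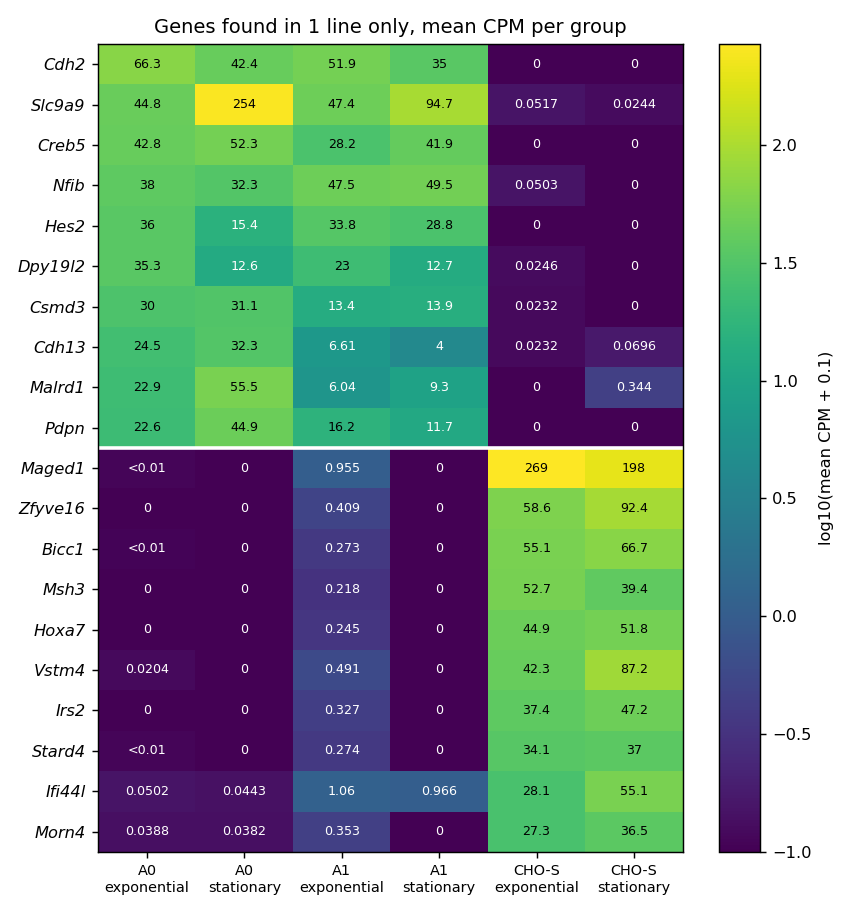
Mean CPM in the 6 groups of the series for the 10 genes with a symbol and the highest mean level found in A0 only (above the white line) and in CHO-S only (below it), with colour on a log10 scale of CPM plus 0.1. The upper genes are expressed in all A0 and A1 groups and the lower ones in both CHO-S groups, with values up to 1.06 CPM in exponential A1.

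Rows without a gene symbol were higher still and were taken up after their values were seen. LOC100764764 had 640, 659, 248 and 371 CPM in A0 and 0 counts in CHO-S, and LOC103161204 had 251, 228, 155 and 172 CPM and 0 counts. Both were higher in exponential A1, at 1294 ± 244 and 2516 ± 133 CPM (SD, n = 3). Neither could be matched to RefSeq. The table also holds 113 rows that RefSeq annotates as immunoglobulin V segments. They summed to 89.0, 89.6, 60.1 and 53.9 CPM in the A0 cultures and to 0.0697, 0 and 0 CPM in CHO-S, and 2 rows carried the signal, of which LOC103164411 had 66.0 ± 17.7 CPM in A0. Constant region rows showed no such difference, since the only one above 1 CPM, LOC103161741, had 2.62 ± 0.759 CPM in A0 (SD, n = 4) and 5.72 ± 0.197 in CHO-S (n = 3). Reads from the antibody transgenes and from hamster immunoglobulin genes cannot be told apart here.

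Among genes detected in both lines, the largest differences that were higher in A0 included the tetraspanin gene Tspan7, with 49.6, 55.5, 54.1 and 45.4 CPM against 0.279, 0.0813 and 0.222 CPM (log2 fold change 7.96, SE 0.22, adjusted p = 1.46e-12, edgeR). Tdgf1, which encodes the Nodal co-receptor Cripto (7.604), Ccdc88a, an actin-binding scaffold gene (7.59), Ngef (6.30), the chromatin remodellers Smarca1 (6.22) and Chd7 (5.48), Brinp3 (5.96), the ephrin ligand Efna5 (5.63), the gamma-glutamyltransferase Ggt1 (5.48) and Bean1 (5.48) followed. On the other side stood the alarmin cytokine gene Il33, with 0.190, 0.118, 0.0402 and 0.0415 CPM in A0 and 259, 239 and 242.5 CPM in CHO-S (-11.19, SE 0.18, adjusted p = 7.466e-15, edgeR). Col4a1 and Col4a2 came with it, as did the cilium gene Hydin (-9.21), S100a16 (-8.47), Tarbp1, an RNA methyltransferase gene (-8.26), Lrrc8b, a subunit of volume-regulated anion channels (-7.73), Znf605 (-7.47) and Eif4e3, a cap-binding protein gene (-7.47). That the cultures of the lines do not overlap was a condition for naming these genes, and it held for 53.8% of all genes tested.

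**Figure D4:**
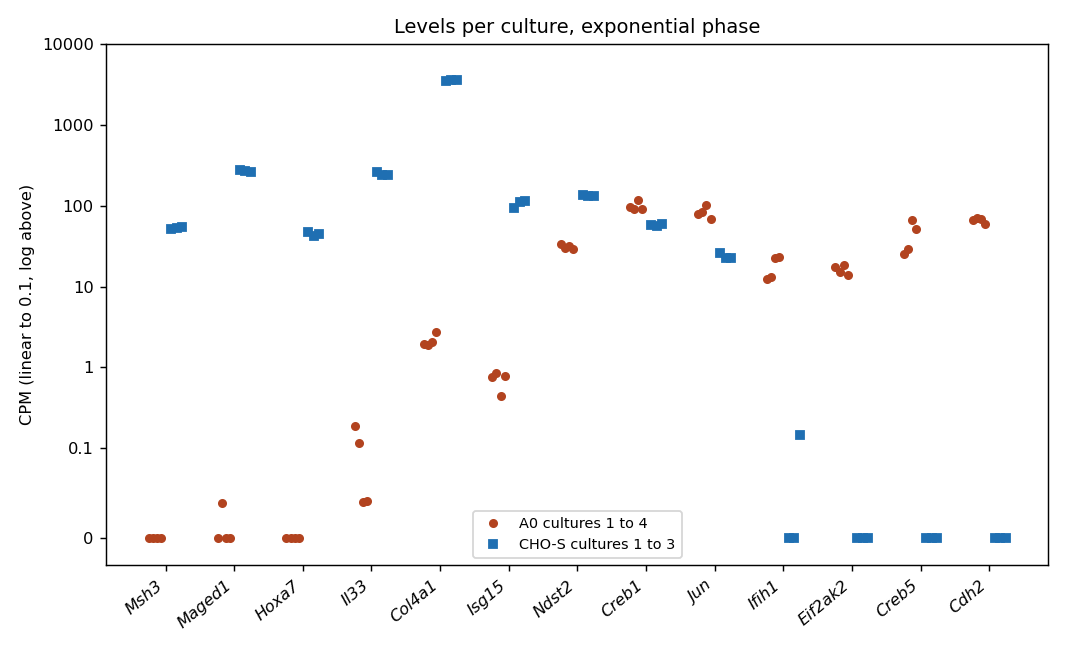
CPM of each A0 culture (circles, 1 to 4 from left to right) and each CHO-S culture (squares, 1 to 3) for 13 genes, on an axis that is linear up to 0.1 CPM and logarithmic above. The lines do not overlap for any gene shown, and for Creb5 and Ifih1 A0 cultures 1 and 2 stand apart from cultures 3 and 4.

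To describe the difference by function, 31 lists with 1273 entries were used. Of these, 1169 were matched to the table and 1038 tested. A further 131 were matched but not tested, and 104 were not matched. The share called ran from 43.5% for serine, glutamine and arginine synthesis to 85.0% for antigen presentation, against 49.5% of all genes and 66.8% of those with at least 10 CPM in 1 line, and is no result about a list where it is near these. The share was under 66.8% for antioxidant genes (47.1%), p53 targets (51.9%), imprinted genes (54.5%), drug efflux transporters (59.3%) and cytoskeletal genes (60.9%), among others. It was near 66.8% for lysosomal genes (66.0%), DNA methylation and Polycomb enzymes (66.7%), the CREB list (68.4%) and G1 genes (69.2%). The other developmental factors (69.8%), junction proteins (71.0%) and apoptosis regulators (73.7%) were little above it. The matrix (74.0%), interferon (75.0%), growth factor (76.7%) and Hox (84.6%) lists were further above. In 16 lists more members were lower in A0 than higher, in 11 more were higher, and in 4 the numbers were equal.

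**Figure D5:**
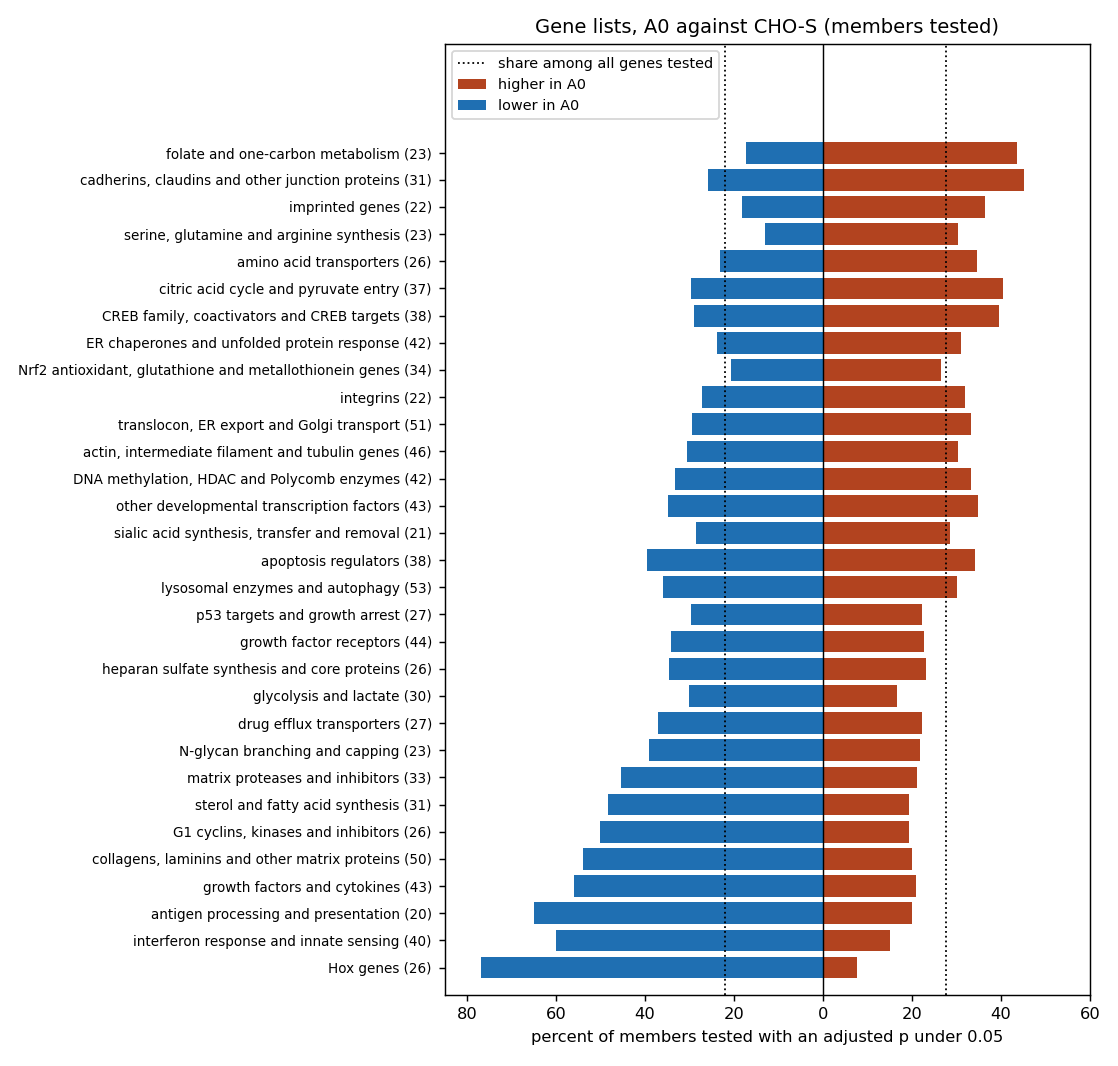
Share of the tested members of each list (number tested in brackets) that passed the threshold with a higher level in A0 (right) or a lower level (left), in percent. Dotted lines mark the shares over all genes, 27.6% and 21.9%, and the lists of Hox, interferon, antigen presentation, growth factor and matrix genes reach furthest to the left.

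Genes of the extracellular matrix were lower in A0. Of 50 members tested, 27 were lower and 10 higher, with a median log2 fold change of -0.63 against 0.14 over all genes. The summed level of the list was 5329 to 6295 CPM in the A0 cultures and 17410 to 17470 CPM in CHO-S, and Col4a1 made up more of this difference than any other member. Spp1, which encodes the secreted phosphoprotein osteopontin, had 37.7, 37.0, 25.3 and 19.1 CPM in A0 and 427, 355 and 383 CPM in CHO-S (-3.70, SE 0.19, adjusted p = 9.991e-10, edgeR). Fibronectin (Fn1) had 366 CPM in A0 and 1843 CPM in CHO-S (-2.33, adjusted p = 1.47e-11, edgeR). Members that were higher in A0 included Col12a1, a collagen on the surface of fibrils (204, 223, 295 and 323 CPM against 82.4, 86.6 and 94.0 CPM, log2 fold change 1.57), and the fibrillin gene Fbn1 (2.19). Of the genes for matrix proteases and their inhibitors 15 of 33 were lower and 7 higher, with 66.7% called against 66.8% of well-expressed genes. Adam12, a membrane metalloprotease gene, had 1.02, 1.25, 1.17 and 0.955 CPM in A0 and 114, 110 and 97.5 CPM in CHO-S (-6.60, adjusted p = 3.995e-14, edgeR). The gelatinase Mmp9 (-3.49) was lower as well. Urokinase (Plau), a serine protease, was higher at 7.38 ± 0.596 against 0.995 ± 0.355 CPM (2.88).

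Of 22 integrins tested, 7 were higher in A0 and 6 lower, which is 59.1% called and under the 66.8% of well-expressed genes, so only single members are described. Itga6, a laminin-binding subunit, had 63.7, 66.3, 133 and 112 CPM in A0 and 7.11, 7.15 and 9.30 CPM in CHO-S (3.57, SE 0.26, adjusted p = 5.145e-08, edgeR), and its partner Itgb4 was higher too (1.21). Itga8 was found in A0 only, at least 32.3-fold higher. The fibronectin receptor subunit Itga5 (-1.51) and Itgb5 (-1.37) were lower in A0. Among 31 genes for cadherins, claudins and other junction proteins, 14 were higher in A0 and 8 lower, which is 71.0% called. Of these calls 5 were of genes under 1 CPM in both lines. Beside Cdh2 and Cdh13, Epcam was found in A0 only, but at 1.73 ± 0.125 CPM (SD, n = 4). The claudin gene Cldn15 was lower (-4.26, 0.228 against 4.48 CPM).

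Secreted growth factors and cytokines were lower in A0 for 24 of 43 members and higher for 9, with a median of -0.81 against 0.14. The chemokine Cxcl10 had 0.227, 0.196, 0.523 and 0.291 CPM in A0 and 41.6, 46.0 and 45.3 CPM in CHO-S (-7.14, SE 0.19, adjusted p = 1.148e-12, edgeR). Ctgf, a matricellular protein gene, had 5.13 ± 0.758 against 145 ± 18.9 CPM (-4.82), and Figf, which encodes vascular endothelial growth factor D, 1.52 ± 0.204 against 27.4 ± 1.28 CPM (-4.17; SD, n = 4 and n = 3). Those higher in A0 included the chemokine Cxcl12 (2.31), the inhibin subunit Inha (2.25) and the neurotrophin Bdnf (1.95). For growth factor receptors 15 of 44 were lower and 10 higher, and the 56.8% called was under the 66.8% of well-expressed genes. Pdgfrb, the platelet-derived growth factor receptor beta gene, had 16.7, 17.2, 12.2 and 15.2 CPM in A0 and 196, 197 and 189 CPM in CHO-S (-3.66, SE 0.11, adjusted p = 4.165e-12, edgeR). Fgfr1 went the other way, with means of 54.1 against 6.38 CPM (3.08). The epidermal growth factor receptor gene Egfr was found in A0 only, with 3.64, 3.41, 4.34 and 3.61 CPM against 0 counts, at least 16.7-fold higher. Fgfr2 and Erbb4 were also found in A0 only, at 2.28 and 1.61 CPM.

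Interferon response genes are induced when cells sense viral nucleic acids. Of 40 members tested, 24 were lower in A0 and 6 higher, with a median of -0.58 against 0.14. The ubiquitin-like modifier gene Isg15 had 0.758, 0.863, 0.443 and 0.789 CPM in A0 and 93.8, 110 and 115 CPM in CHO-S (-7.21, SE 0.16, adjusted p = 1.602e-13, edgeR). Ifit2 was found in CHO-S only and at least 124.2-fold lower in A0, and Ifit3 at least 18.8-fold lower, from 0 counts. Of the sensors of double-stranded RNA, Tlr3, which resides in endosomes, was lower in A0 (0.394 ± 0.113 against 16.1 ± 1.01 CPM, -5.33). Of the cytosolic sensors, Ifih1 and Eif2ak2 were higher in A0, whereas Ddx58, which encodes RIG-I, was lower (12.8 against 16.2 CPM, -0.34), as was Dhx58 (0.520 against 1.43 CPM, -1.45). Ifih1, which encodes MDA5, had 12.3, 13.3, 22.8 and 23.1 CPM in A0 against 0, 0 and 0.148 CPM in CHO-S, at least 79.5-fold higher. Eif2ak2, which encodes the kinase PKR, had 17.6, 15.3, 18.6 and 14.1 CPM in A0 and 0 counts in CHO-S, at least 72.9-fold higher. The receptor chain Ifnar1 (0.58) and the kinase Jak1 (0.57), which pass the interferon signal on, were higher in A0. Of the 20 genes for antigen processing and presentation, 13 were lower in A0 and 4 higher (median -0.45), among them the class II regulator subunit Rfxap (-1.32) and the peptidase Erap1 (-1.06) on the lower side and the peptide transporter Tap2 (0.62) on the higher.

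Other developmental transcription factors were split evenly, with 15 of 43 higher in A0 and 15 lower, and 69.8% called against 66.8% of well-expressed genes. Beside Twist1, the homeobox genes Dlx2 (3.48) and Dlx1 (2.79) were higher in A0. Meis1, a Hox cofactor, was lower (0.139 ± 0.0681 against 5.48 ± 1.31 CPM, -5.25), as was Snai1, another factor of mesenchymal cells (9.79 ± 2.91 against 50.6 ± 4.12 CPM, -2.37; SD, n = 4 and n = 3 throughout). Of 22 imprinted genes, 8 were higher and 4 lower. Asb4 was found in A0 only (3.18 ± 0.552 CPM), the adaptor gene Grb10 had 2.46, 2.67, 1.05 and 0.997 CPM in A0 and 0 counts in CHO-S, and Slc22a18 was higher (2.01). Gnas (-0.94), Igf2r (-1.35) and Nnat (-1.39) were lower. Enzymes of DNA methylation, histone deacetylation and the Polycomb complexes were balanced at 14 higher and 14 lower of 42, with 9 higher when any 1 CHO-S culture was left out. Suz12, a core subunit of Polycomb repressive complex 2, had 27.5, 28.5, 30.5 and 33.8 CPM in A0 and 78.9, 79.7 and 82.0 CPM in CHO-S (-1.41, SE 0.092, adjusted p = 1.345e-08, edgeR). The methyl-CpG binding gene Mbd1 (-1.34) was lower and the deacetylase Sirt7 (1.13) higher.

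The study asked about the transcription factor CREB1, a cAMP-responsive activator, in relation to the promoter of the transgenes. It compared A1 with A0, saw no change of CREB1 mRNA there, and drew on nuclear protein, phosphopeptides and chromatin immunoprecipitation. The RNA levels of A0 and CHO-S given here are another comparison and do not test its proposal. Creb1 had 96.1, 92.2, 116.5 and 91.3 CPM in A0 and 58.4, 55.7 and 59.0 CPM in CHO-S, higher in every A0 culture (0.78, SE 0.10, adjusted p = 1.333e-05, edgeR). In its family and among its coactivators and targets 15 of 38 were higher and 11 lower, the latter 7 without CHO-S culture 2 or 3. Jun, a subunit of AP-1, was higher at 83.0 ± 14.4 against 23.7 ± 1.96 CPM (1.81; SD, n = 4 and n = 3), whereas Junb was lower at 14.1 ± 1.13 against 54.1 ± 4.60 CPM (-1.95). The coactivator gene Crtc2 was lower (-0.84), and the nuclear receptor Nr4a2, a target of CREB, higher (1.40).

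In folate and one-carbon metabolism, 10 of 23 members were higher in A0 and 4 lower, with a median of 0.32 against 0.14. The share called was 60.9% here, 43.5% for the serine, glutamine and arginine genes and 57.7% for the amino acid transporters. All are under the 66.8% of well-expressed genes, so only single members are described. Atic, which completes purine synthesis, had 543, 540, 551 and 404 CPM in A0 and 161.5, 164 and 162 CPM in CHO-S (1.65, SE 0.11, adjusted p = 2.104e-08, edgeR). Mitochondrial Mthfd2 was higher too, at 315 ± 67.6 against 133 ± 5.87 CPM (1.24; SD, n = 4 and n = 3). The folate carrier Slc19a1 was lower (-0.83). Of 23 genes for serine, glutamine and arginine synthesis 7 were higher and 3 lower. Got1, the cytosolic aspartate transaminase (-1.57), and Phgdh, the first enzyme of serine synthesis (-0.85), were lower, while the glutaminase Gls2 (1.53) and Pycr1, for proline (1.21), were higher. Glutamine synthetase (Glul), a selection marker in common use in CHO cells, had 63.1 ± 3.77 against 80.0 ± 3.40 CPM (-0.34, adjusted p = 0.0036, edgeR). Asparagine synthetase (Asns) had 104, 110, 52.8 and 37.1 CPM in A0 and 55.5, 58.4 and 60.8 CPM in CHO-S, so that cultures 1 and 2 lay above CHO-S and cultures 3 and 4 below (0.39, adjusted p = 0.28, edgeR). Of 26 amino acid transporters 9 were higher and 6 lower, a count of higher members that was 3 without CHO-S culture 1 or 3 and 5 without CHO-S culture 2 or A0 culture 2. Among members with at least 1 CPM in 1 line Slc43a2 had the largest difference (9.01 ± 0.722 against 40.8 ± 3.62 CPM, -2.18).

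Of 30 glycolysis and lactate genes, 9 were lower in A0 and 5 higher. The mutase Pgam1 (-1.05) and the lactate carrier Slc16a1 (-0.86) were lower, and the phosphofructokinase Pfkp had 105.5, 95.3, 115 and 103 CPM in A0 against 37.2, 35.3 and 36.4 CPM in CHO-S (1.53, SE 0.092, adjusted p = 6.226e-09, edgeR). Glucose carrier Slc2a1 was also higher (0.91). Gapdh, often taken as a constant reference, had 3993, 4447, 4074 and 2435 CPM in A0 and 5700, 5671 and 5618 CPM in CHO-S (-0.60, SE 0.15, adjusted p = 0.0043, edgeR), with A0 culture 4 well below the other 3. For the citric acid cycle 15 of 37 were higher and 11 lower, among the latter Pdk4, a kinase that inhibits pyruvate entry (-1.82), and the pyruvate carrier subunit Mpc1 (-1.29). Of 31 genes for sterol and fatty acid synthesis 15 were lower in A0 and 6 higher (median -0.24). The share called was 67.7% for this list, 46.7% for glycolysis and 70.3% for the citric acid cycle, against 66.8% of well-expressed genes. Lss, which closes the sterol ring, had 145, 138, 133 and 157 CPM in A0 and 312, 342 and 337.5 CPM in CHO-S (-1.21, SE 0.085, adjusted p = 3.341e-08, edgeR). Fdps of the same pathway was lower (-0.86), while the fatty acid elongase Elovl5 was higher (1.08).

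For N-glycan branching and capping 9 of 23 were lower in A0 and 5 higher. The share called was 60.9% here, 57.1% for the sialic acid genes and 57.7% for the heparan sulfate genes described next, all under the 66.8% of well-expressed genes. B4galt6, a galactosyltransferase that acts chiefly on glycolipids, had 0 counts in A0 and 7.88, 7.56 and 7.31 CPM in CHO-S, at least 63.6-fold lower. Mgat4b, which adds a branch, was lower (36.4 ± 2.78 against 77.2 ± 3.52 CPM, -1.08), and Fut8, which adds core fucose to antibodies, had 122 ± 5.81 CPM in A0 and 143 ± 1.91 in CHO-S (-0.24, adjusted p = 0.021, edgeR; SD, n = 4 and n = 3). That call was lost without any 1 of the CHO-S cultures, where the adjusted p reached 0.067. Mgat3, for bisecting N-acetylglucosamine, was near 0 in both lines, at most 0.0813 CPM in any culture. Of 21 genes for sialic acids 6 were higher and 6 lower, with St3gal1 lower (-1.50). St6gal1, whose alpha-2,6 linkage CHO cells are known to lack, had 0.720, 0.706, 0.724 and 0.747 CPM in A0 and 0 counts in CHO-S, too low for the rule of expression in only 1 line. Of 26 genes for heparan sulfate, 9 were lower in A0 and 6 higher. Ndst2, an N-deacetylase and N-sulfotransferase that starts the sulfation of the chain, had 33.8, 30.2, 31.4 and 28.9 CPM in A0 and 135, 131 and 132.5 CPM in CHO-S (-2.10, SE 0.084, adjusted p = 8.865e-11, edgeR). The related Ndst1 was lower as well (-1.34), as was the chain polymerase Ext1 (-1.91). The titles of the CHO-S cultures carry the unexplained letters NDST, and whether this bears on the Ndst2 and Ndst1 values was not tested. Hs6st3, Xylt1 and Extl1 of this pathway were found in A0 only, at 10.01, 7.42 and 5.79 CPM.

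The lists of the secretory pathway did not exceed the share of well-expressed genes that passed, with 54.8% called for chaperones and 62.7% for transport against 66.8%. For endoplasmic reticulum chaperones and the unfolded protein response, 13 of 42 were higher in A0 and 10 lower, and the only member past 2-fold was the prolyl isomerase Fkbp2 (1.21). The chaperone Hsp90b1 had 2823 ± 173 CPM in A0 and 4779 ± 224 in CHO-S (-0.76; SD, n = 4 and n = 3). The secreted stress factor Manf was higher (0.74). For the translocon, export and Golgi transport 17 of 51 were higher and 15 lower, led by Srp68 of the signal recognition particle, with 445, 470, 509 and 470 CPM against 164, 173 and 172 CPM (1.48, SE 0.085, adjusted p = 3.739e-09, edgeR). The cargo receptor Lman1 was lower (-0.77). Lysosomal enzymes and autophagy genes had 19 of 53 lower and 16 higher (9 higher without CHO-S culture 3), with the autophagy receptor Sqstm1 (-1.63) and cathepsin A (Ctsa, -1.26) lower and cathepsin H (Ctsh, 1.06) higher.

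Of 26 G1 cyclins, kinases and inhibitors 13 were lower in A0 and 5 higher, and the 5 became 3 without A0 culture 1 or CHO-S culture 1 and 2 without CHO-S culture 3. Cyclin D2 (Ccnd2) had 59.1, 71.2, 78.7 and 68.2 CPM in A0 and 210, 203 and 203 CPM in CHO-S (-1.57, SE 0.096, adjusted p = 7.184e-09, edgeR). Both cyclin D1 (Ccnd1, -0.85) and the kinase inhibitor Cdkn2d (-1.15) were lower. Of 27 p53 targets and arrest genes 8 were lower and 6 higher, with the antiproliferative gene Btg1 at 50.6 ± 8.38 against 311 ± 17.7 CPM (-2.62; SD, n = 4 and n = 3). Apoptosis regulators were 15 lower and 13 higher of 38, with 73.7% called against 66.8% of well-expressed genes. The survival gene Mcl1 had 155, 149, 156 and 135.5 CPM in A0 and 555, 541 and 525 CPM in CHO-S (-1.86, SE 0.083, adjusted p = 2.651e-10, edgeR). Its opponent Bmf (-2.30) and the inflammatory caspase Casp4 (-5.46) were lower too, while the initiator caspase Casp8 (1.21) and the survival gene Bcl2a1 (2.02) were higher.

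Of 34 antioxidant, glutathione and metallothionein genes 9 were higher in A0 and 7 lower, or 11 lower with A0 cultures 1 and 2 alone. The metallothionein Mt1 was higher (15.3 ± 1.87 against 2.20 ± 0.511 CPM, 2.81), and heme oxygenase Hmox1 (877 ± 83.4 against 1883 ± 70.6 CPM, -1.10) and the glutathione peroxidase Gpx4 (378 ± 98.6 against 1034 ± 6.94 CPM, -1.45; SD, n = 4 and n = 3) were lower. Among 27 drug efflux transporters 10 were lower and 6 higher, with Abcb1, which encodes P-glycoprotein, lower (-0.90) and Abcb6 higher (1.19). Of 46 actin, intermediate filament and tubulin genes 14 were higher and 14 lower. Actb had 2506 ± 199 CPM in A0 and 3166 ± 84.0 in CHO-S (-0.34, adjusted p = 0.0045, edgeR), the calcium-binding gene S100a6 was lower (-1.92) and the actin-bundling gene Tagln higher (1.39).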

How the data were processed

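RNA of A0 and CHO-S cultures at exponential phase was sequenced from poly(A) libraries of a stranded kit. The authors aligned reads with STAR (v. 2.5.4b) to the hamster genome C_griseus_v1.0 and counted them per gene with HTSeq-count (v. 0.7.2). The deposited values are raw counts of 28037 genes, without normalization. The 5 summary lines of HTSeq-count were kept out of all totals. Reads that align to more than 1 place are not counted, so near-identical genes lose reads, and the strand setting is not given in the sources used here, so overlapping and antisense genes are uncertain. Unaligned reads were removed by the authors from the deposited reads.

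A gene entered the test when 2 or more cultures had a count and its variance was not 0. The test was run in edgeR 4.0.16 under R 4.3.3, with TMM scaling and the two-sided quasi-likelihood test, with Benjamini-Hochberg adjustment over 19966 genes and a threshold of 0.05. Fold changes are log2 of A0 over CHO-S. CPM are TMM-normalized and not corrected for gene length. The biological coefficient of variation was 0.113. Bounds use a floor of 3 counts per culture, and floors and bounds cover counting error only. CHO-S cultures differed by more than the sampling noise (chi-square per degree of freedom 1.72 to 2.38).

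On simulated counts all 200 changed genes were recovered, 100 at 2-fold and 100 at 4-fold, with 10 false calls among 19378 genes. With none changed, 0 of 19353 were called. The changed genes were drawn only from those above a set mean level. Every gene was given the same coefficient of variation, and no difference between pairs of A0 cultures was simulated. Recovery of scarce genes and error for genes that vary more between cultures were therefore not tested.

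Named genes are the 10 largest differences in each direction among genes with a symbol, at least 10 CPM in the higher line, more than 3 counts in some culture of the lower line and no overlap, the 10 genes with a symbol and the highest level found in each line only, up to 4 members per list and direction, and genes chosen by name. Ddx58, Dhx58, Fn1, Hoxc4, Hoxc8, the markers and the genes without a symbol were named after their values were seen. Members and lists were chosen with earlier results of these data known. DESeq2 1.42.0, limma 3.58.1 and other filters, scalings and sets of cultures served as alternatives. Symbols of 570 LOC genes and the gene order come from RefSeq (CriGri-PICRH-1.0). As the counts use another build, coordinates are left out. Python 3.11.15 with pandas 2.3.3 and numpy 2.4.6 was used for the rest. Results for some genes are not reported here.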

Additional observations from a re-analysis of the deposited data

Results flagged for a closer look

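A single A0 culture stood far from the other 3 for 13 of 259 named genes looked at, by a gap to the nearest that exceeded Dixon's 95% critical value for 4 samples as a part of the range. Chance flags about 1 in 20, which is 12.95 here. In 10 of the 13 the culture was number 4. It was low for Atic (404 CPM against 540 to 551 in the others, a gap of 0.925 of the range), Pfkfb3 (0.925), Nr4a2 (0.909), Vegfb (0.896) and Bean1 (0.833). It was high for Itga5 (158 CPM against 132 to 133, 0.936), Atg16l1 (0.853), Cdkn2d (0.84), Bmf (6.56 CPM against 3.02 to 3.60, 0.835) and Dpy19l2 (0.835). Culture 1 was high for Elovl5 (0.892) and Mpc1 (0.842), and culture 2 for Plau (0.853). In each case the 4 A0 cultures stayed on 1 side of the CHO-S cultures.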

How the results depend on the processing

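The number of genes past the threshold, 9879, stayed within 1.5 times of that value under all alternatives, from 8322 to 11164, with 8322 to 10261 when each culture was left out, 9366 with DESeq2 and 9868 with limma-voom. The genes called were less steady than their number, as 7642 of the 9879 were called with each culture left out in turn. Genes found in A0 only fell from 307 to 93, and those in CHO-S only from 71 to 42, when 5 CPM was required in every culture. Leaving out each culture in turn gave 307 to 332 and 72 to 78. As the rule has to hold in every culture, leaving a culture out loosens it, so these values do not test it. Of 287 named genes, 274 kept direction and side of the threshold under the 19 alternatives. The reversals were Asns (-0.38 with A0 cultures 3 and 4 alone, 0.87 with cultures 1 and 2 alone) and Mgat3 (-0.19 with the first libraries), neither called in the comparison itself. Calls of Actb, Ccne2, Cldn6, Fut8, Gne, Mthfd1l, Myc, Neu3, Slc35c1, Slc38a4 and Srebf1 were lost in some alternatives, and the cause was not tested. Same-numbered A0 and CHO-S cultures did not deviate together (r = 0.046, -0.11 and 0.052 over 10199 genes), so the numbers are not taken as pairs. A replicate block gave 10209 calls. Depth limits scarce genes, as 2942 of those tested had at most 3 counts in every culture.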
